A study of Mus musculus with 12 samples.

Results

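The genes described here are 10 components of the Notch pathway: the receptors Notch1, Notch2 and Notch3, the ligands Dll1, Dll3 and Jag1, and the target genes Hes1, Hes5, Hey1 and Hey2. They were taken by symbol from a gene count table of 17365 genes, in which all 10 were present, and all 10 were among the 13312 genes with enough reads to be tested. The table came from RNA-seq of adult mouse neural stem cells (NSCs) that were kept proliferating or driven into quiescence in culture. NSC lines were ANS4, from the MF1 strain, and BL6, from C57BL/6, both derived from the subventricular zone of wild-type mice aged 6 to 8 weeks and used below passage 10. Each strain is therefore represented by 1 line, and strain and line cannot be told apart. All cells were kept in the same serum-free medium with laminin, and differed in the growth factors given for 3 days. EGF/FGF cells received EGF and FGF2 and proliferated. BMP cells received BMP4 alone, the condition the study calls dormant quiescent, and BMP/FGF cells received BMP4 with FGF2, the condition it calls primed quiescent. Every factor was given at 10 ng/ml. There were 2 replicates for each line and medium, called biological by the study, which made 4 libraries per medium and 12 in all.

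Notch receptors are single-pass membrane proteins that are cut when a ligand on a neighbouring cell pulls on them. The released intracellular domain enters the nucleus, joins the DNA-binding protein RBPJ and a Mastermind coactivator, and switches on target genes, among them the Hes and Hey repressors. Hes and Hey proteins in turn hold down proneural genes and the ligand genes, and in the subventricular zone Notch signalling is known for keeping stem cells undifferentiated and quiescent. RNA levels of these genes do not measure receptor cleavage.

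Total counts per library ran from 18069052 to 19451818, so that a level of 1 CPM (counts scaled to the library total) stood for 17.9 to 19.4 counts. Levels below are CPM scaled by the trimmed mean of M values (TMM), a correction that ranged from 0.972 to 1.03, and fold changes are from a fit of medium and line to all 12 libraries. A gene is called changed at a Benjamini-Hochberg adjusted p (FDR) below 0.05. Replicates of 1 group differed by more than sampling noise in every group (chi-square per degree of freedom 2.13 to 12.3, the largest between the BL6 BMP libraries). The stem cell markers Sox2 and Sox9 were present in every library, with Sox2 between 456 and 755 CPM. Of the 8 listed stem cell markers, 5 were called higher and 3 lower than in EGF/FGF, both in BMP and in BMP/FGF. Among all tested genes 79.6% and 78.9% were called in these comparisons. Of those lower in BMP, Nes averaged 569 CPM in EGF/FGF and 126 CPM in BMP, Egfr 353 and 191 CPM, and Fabp7 2410 and 476 CPM. Markers of microglia summed to at most 3.61 CPM over the 4 of 8 listed genes in the table, with Csf1r at 0 to 2 counts, and the endothelial genes Pecam1 and Tie1 stayed at or under 8 and 4 counts, although the endothelial list (6 of 8 genes measured) had a summed level of 39.2 to 47.4 CPM in EGF/FGF, 5.58 to 9.58 CPM in BMP and 15 to 19.1 CPM in BMP/FGF. Within the endothelial list, Flt1 alone stood at 36.5 to 45.6 CPM in EGF/FGF. Mural markers (6 of 6 measured) summed to 3.38 to 4.45 CPM in EGF/FGF and 5.96 to 7.08 CPM in BMP. In BMP/FGF they summed to 9.06 to 13.4 CPM, and their part in the members' levels was not tested. These are bulk libraries, in which fewer cells expressing a gene and less RNA per cell cannot be told apart.

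RBPJ recognises the sequence GTGGGAA, and the sequences around its matches are shown because, of the members whose promoters could be searched, Hes5 and Hey2 held them and the receptors and ligands did not. Promoter windows from RefSeq (GRCm38.p6, 250 bases before to 50 bases after each annotated start site) were at hand for 8 members, in 9 windows because Dll1 has 2 annotated starts. Hes1 and Hey1 had no entry. GTGGGAA or its reverse complement TTCCCAC was found in the windows of Hes5 and Hey2 and in none of the other 6 members. Each of these windows held 2 matches in opposite orientation, the first reading TTCCCAC and the second GTGGGAA along the gene, with 136 bases between them in Hes5 and 196 bases in Hey2. Of all 32851 windows, 6.38% held at least 1 match and 0.256% held 2 or more. Among 53 other genes of the Notch pathway with a window, 5 held a match. The matches, in capitals with 10 bases on either side, are as follows, each read 5′ to 3′ along the gene.
Hes5 distal: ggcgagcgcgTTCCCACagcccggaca
Hes5 proximal: gccgccgagtGTGGGAAcggccgcggc
Hey2 distal: cgcggtggcaTTCCCACgcctctgcca
Hey2 proximal: gggctgcagcGTGGGAAagaacctcca
The Hes5 stretches lie at chr4:154960687-154960713 and chr4:154960830-154960856 on the plus strand, with the matches 226 to 220 and 83 to 77 bases before the start site. Those of Hey2 lie at chr10:30842974-30843000 and chr10:30842771-30842797 on the minus strand. The distal Hey2 match is 207 to 201 bases before the start site, and the proximal one spans it, from 4 bases before to 2 bases past the first base. A match is a run of letters and not evidence of binding.

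The hexamer CACGCG, a sequence that Hes repressors can bind, was present in 9.27% of all windows (either strand). Among the members it was found in the windows of Jag1, where it occurred 2 times, of Notch2 and of 1 of the 2 Dll1 starts. The E-box CACGTG, found in 7.15% of all windows, did not occur in the 9 member windows.

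**Figure D1:**
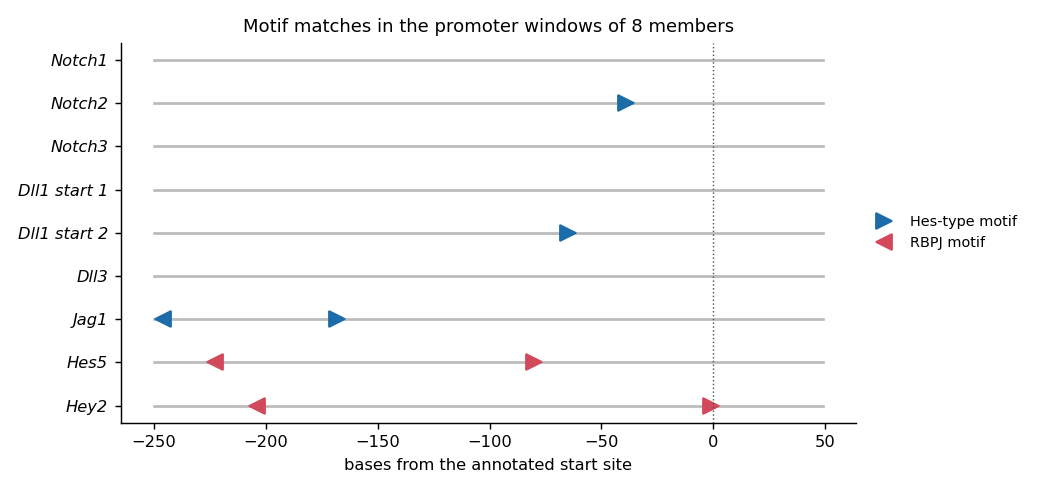
Positions of motif matches in the 9 promoter windows of 8 members, in bases from the annotated start site (dotted line), with arrowheads giving the orientation of the match relative to the gene. Red marks the RBPJ motif and blue the CACGCG hexamer, and only Hes5 and Hey2 hold the RBPJ motif, 2 times each.

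To place the members in the response as a whole, they were counted against all tested genes. In BMP against EGF/FGF, 9 of 10 members were called, 3 higher (Notch2, Dll1 and Dll3) and 6 lower (Notch1, Notch3, Jag1, Hes1, Hes5 and Hey1). Of all tested genes 79.6% were called in this comparison, 40.8% higher and 38.8% lower, so the number of members called is close to that of genes at large. In BMP/FGF against EGF/FGF, 8 members were called, 3 higher (Dll1, Dll3 and Hey2) and 5 lower (Notch1, Notch3, Jag1, Hes1 and Hes5), where 78.9% of all genes were called, 40.9% higher and 38% lower. Adding FGF2 to BMP4 changed 7 members, 3 upward (Hes5, Hey1 and Hey2) and 4 downward (Notch1, Notch2, Dll3 and Jag1), against 41.4% of all genes, 20.1% higher and 21.3% lower. The count was 5 in the ANS4 libraries alone, where 4783 of 13369 tested genes were called. It was 8 in the BL6 libraries alone, where 5440 of 13441 were. A log2 change larger than 1.5, the size the study used, was reached by Dll3 and Jag1 in BMP (17.8% of all genes) and by Jag1 and Hey2 in BMP/FGF (16.7%). Between the 2 quiescent media the largest change of a member was 0.98, for Hey2, and 1.59% of all genes went past 1.5. Hey2 enters these tallies with only 7 to 34 counts per library, and it passed the filter on low counts through the media in which it was higher. The median log2 change over the members was -0.47, -0.16 and 0.04 in the 3 comparisons, against 0.02, 0.02 and -0.00 over all tested genes.

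**Figure D2:**
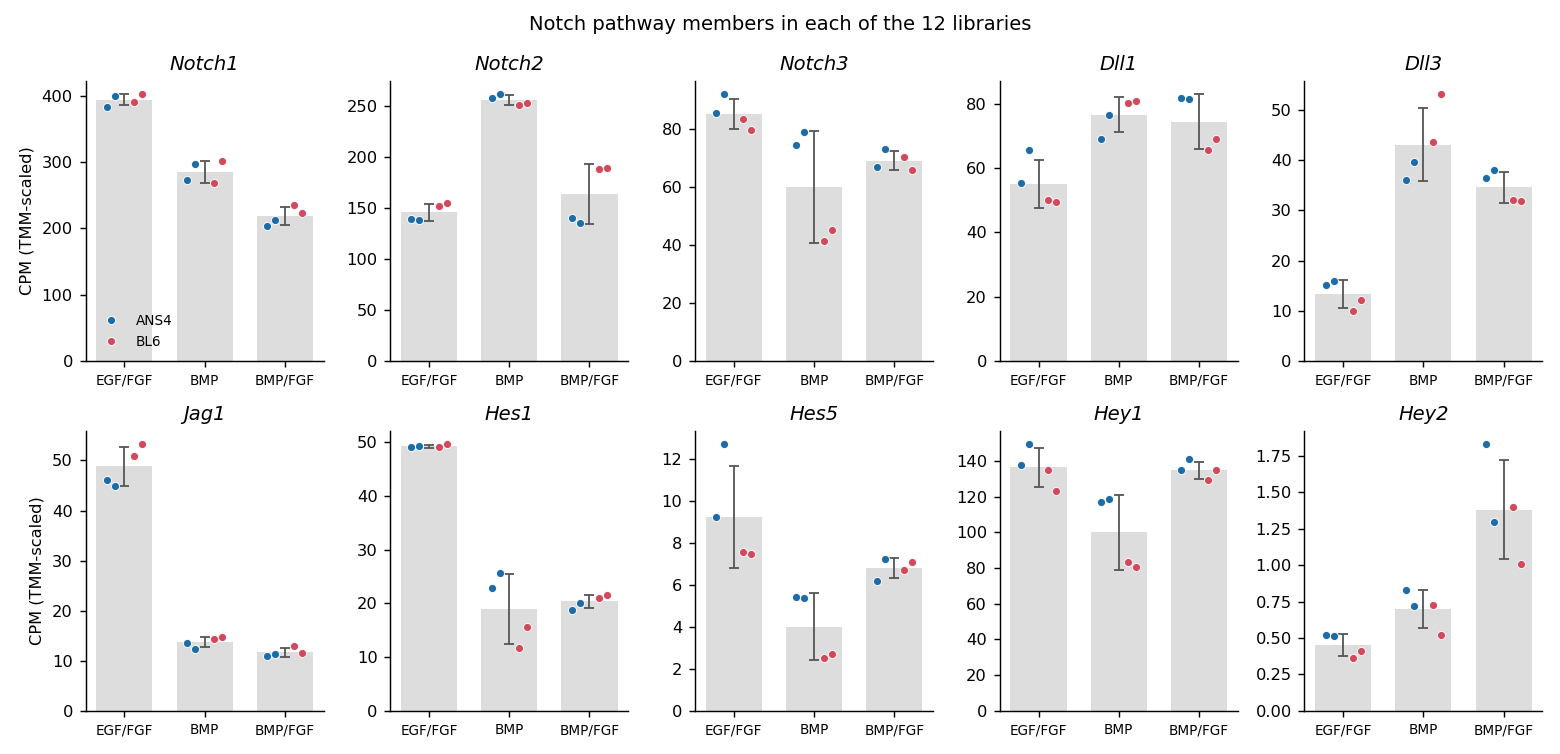
CPM of each member in each of the 12 libraries (points, blue for ANS4 and red for BL6), with the mean and SD of the 4 libraries of a medium as bar and error bar. Jag1 and Hes1 stand highest in EGF/FGF, Dll3 lowest, and Hes5 and Hey1 dip in BMP, most in BL6.

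**Figure D3:**
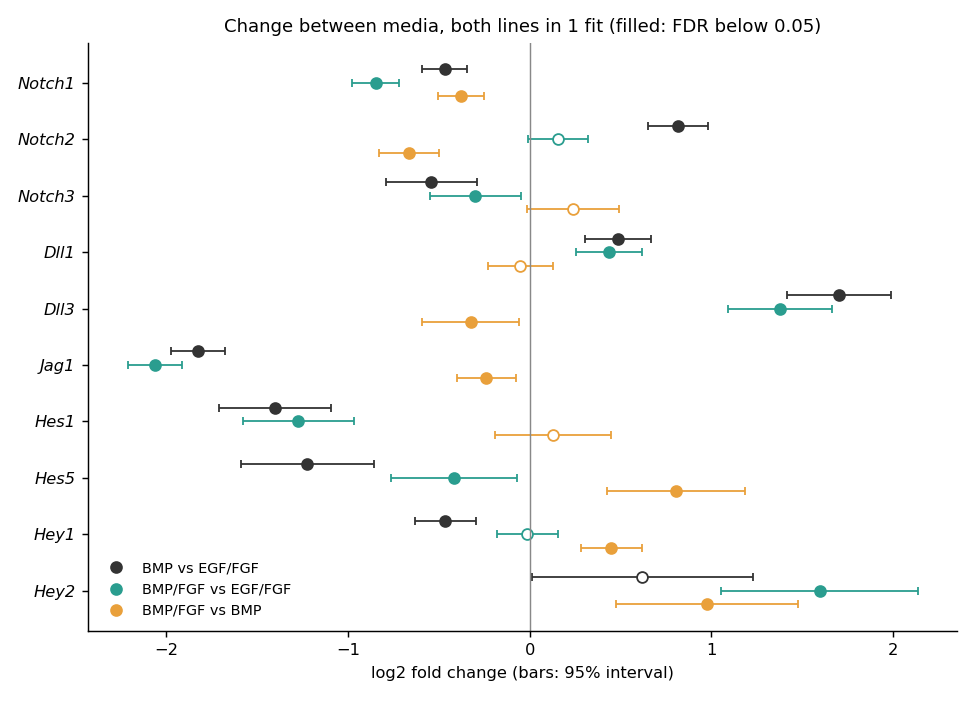
Log2 fold change of each member between media with its 95% interval, from the fit over both lines, filled where the FDR is below 0.05. Jag1 and Hes1 lie far to the left in both quiescent media, and in BMP/FGF against BMP the filled points of Hes5, Hey1 and Hey2 lie to the right.

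Notch1 was the receptor with the most reads in every medium, and its RNA fell at each step from EGF/FGF through BMP to BMP/FGF. Notch1 (chr2:26457903-26516663, minus strand) stood in EGF/FGF at 384 and 399 CPM in ANS4 and at 391 and 402 CPM in BL6. In BMP it stood at 272 and 297 CPM in ANS4 and at 268 and 301 CPM in BL6, and in BMP/FGF at 204 and 213 CPM in ANS4 and at 236 and 224 CPM in BL6. The ranges of the 3 media did not overlap, and the lines lay close to each other in each. The log2 change of Notch1 was -0.47 ± 0.06 (SE, n = 4 libraries per medium, FDR = 1.11e-06) in BMP and -0.85 ± 0.06 (FDR = 4.34e-10) in BMP/FGF against EGF/FGF, and -0.38 ± 0.06 (FDR = 8.24e-05) between the quiescent media.

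Notch2, a receptor that is structurally close to Notch1, went the other way in BMP. Notch2 (chr3:98013527-98150361, plus strand) was at 139 and 138 CPM in ANS4 and 152 and 154 CPM in BL6 in EGF/FGF. In BMP it was at 258 and 261 CPM in ANS4 and 251 and 253 CPM in BL6, above every library of the other media. In BMP/FGF the lines parted, with 141 and 136 CPM in ANS4, within the range seen in EGF/FGF or just below it, and 188 and 190 CPM in BL6. Notch2 rose by 0.82 ± 0.08 on the log2 scale in BMP (1.76-fold, FDR = 2.4e-08) and was 0.66 lower in BMP/FGF than in BMP (log2 change -0.66 ± 0.08, FDR = 3.62e-06). The difference between BMP/FGF and EGF/FGF, 0.15 ± 0.08, was not called (FDR = 0.0781, 95% interval -0.01 to 0.32). It was called when BMP/FGF replicate 2 of ANS4 was left out (0.21, FDR = 0.0214) and in BL6 alone (0.29, FDR = 0.00169), and it was 0.089 without BMP/FGF replicate 2 of BL6 and 0.097 without replicate 1.

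Notch3 fell in BMP, mainly in BL6. Notch3 (chr17:32120820-32166852, minus strand) was at 85.5 and 92 CPM in ANS4 and 83.6 and 79.9 CPM in BL6 in EGF/FGF, and at 66.9 and 73.3 CPM in ANS4 and 70.5 and 65.9 CPM in BL6 in BMP/FGF. In BMP the ANS4 libraries were at 74.6 and 79 CPM and the BL6 libraries at 41.5 and 45.2 CPM, the lowest of the series. The log2 change over both lines was -0.54 ± 0.12 (FDR = 0.000468) in BMP and -0.30 ± 0.12 (FDR = 0.0282) in BMP/FGF against EGF/FGF. The call in BMP/FGF was lost without either ANS4 BMP/FGF library (FDR = 0.0968 and 0.072) or either BL6 EGF/FGF library (FDR = 0.0886 and 0.0677). Between BMP/FGF and BMP the change of 0.24 ± 0.12 was not called (FDR = 0.119), and it was called without BMP replicate 2 of ANS4 (0.35, FDR = 0.0252) and as low as 0.12 without BMP replicate 1 of BL6.

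The balance between receptors therefore differed between media. Per kilobase of the median annotated coding transcript (GENCODE vM21), Notch2 stood at a ratio of 0.176 ± 0.00949 to Notch1 in EGF/FGF (SD, n = 4), 0.429 ± 0.0242 in BMP and 0.353 ± 0.0458 in BMP/FGF. With the longest coding transcript, a choice made after seeing that the median for Notch1, Notch3 and Dll1 averages a short and a long transcript, the ratios were 0.334, 0.814 and 0.671. Under both lengths every BMP and BMP/FGF library lay above every EGF/FGF library, and Notch1 remained the higher of the pair.

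The ligands moved apart. Jag1, a ligand of the Jagged/Serrate type, had the largest fall of all members, and its level in EGF/FGF did not come near that of either quiescent medium. Jag1 (chr2:137081456-137116644, minus strand) was at 46.1 and 44.9 CPM in ANS4 and 50.9 and 53.3 CPM in BL6 in EGF/FGF. It was at 13.6 and 12.4 CPM in ANS4 and 14.4 and 14.7 CPM in BL6 in BMP, and at 10.9 and 11.3 CPM in ANS4 and 13 and 11.6 CPM in BL6 in BMP/FGF. Jag1 was 3.54-fold lower in BMP (log2 change -1.82 ± 0.07, FDR = 8.53e-14) and 4.17-fold lower in BMP/FGF (-2.06 ± 0.07, FDR = 2.28e-14) than in EGF/FGF. The further step from BMP to BMP/FGF was small (-0.24 ± 0.08, FDR = 0.0187) and lost its call without BMP replicate 1 of ANS4 (FDR = 0.0505) or BMP/FGF replicate 2 of BL6 (FDR = 0.0636).

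Dll1, a Delta-type ligand that activates Notch on neighbouring cells, was higher in both quiescent media. In EGF/FGF Dll1 (chr17:15367354-15376872, minus strand) was at 55.4 and 65.5 CPM in ANS4 and 50 and 49.4 CPM in BL6. In BMP it was at 69 and 76.4 CPM in ANS4 and 80.2 and 80.7 CPM in BL6, and in BMP/FGF at 81.8 and 81.5 CPM in ANS4 and 65.5 and 68.9 CPM in BL6. The higher line was thus BL6 in BMP and ANS4 in the other media. The log2 change was 0.49 ± 0.09 (FDR = 5.2e-05) in BMP and 0.43 ± 0.09 (FDR = 0.000169) in BMP/FGF, and -0.05 ± 0.09 between the quiescent media (FDR = 0.668, 95% interval -0.23 to 0.13).

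Dll3, a divergent Delta-like protein that is known to act inside the cell rather than to activate neighbours, had the largest rise in BMP. In EGF/FGF Dll3 (chr7:28293553-28302238, minus strand) was at 15.2 and 16 CPM in ANS4 and at 9.94 and 12.1 CPM in BL6. In BMP it was at 36.1 and 39.6 CPM in ANS4 and at 43.6 and 53.1 CPM in BL6, and in BMP/FGF at 36.5 and 37.9 CPM in ANS4 and at 32.1 and 31.8 CPM in BL6. All 8 quiescent libraries lay above all 4 EGF/FGF libraries. Dll3 rose 3.26-fold in BMP (log2 change 1.70 ± 0.14, FDR = 1.9e-09) and 2.6-fold in BMP/FGF (1.38 ± 0.14, FDR = 3.98e-08). The difference of -0.32 ± 0.13 between BMP/FGF and BMP lay at the threshold (FDR = 0.0471). It was not called without ANS4 EGF/FGF replicate 1, either ANS4 BMP/FGF replicate, BL6 EGF/FGF replicate 2, either BL6 BMP replicate or either BL6 BMP/FGF replicate (FDR 0.0528 to 0.202), and without BL6 BMP replicate 2 it was -0.18. Per kilobase, Jag1 stood above Dll3 in EGF/FGF (8.7 ± 0.703 against 5.09 ± 1.07 CPM per kb, SD, n = 4) and below it in BMP (2.45 ± 0.182 against 16.5 ± 2.81) and in BMP/FGF (2.08 ± 0.159 against 13.2 ± 1.19).

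The target genes did not move as 1 group. Hes1, the Hes repressor that is also known to respond to other signals including BMP and FGF, fell in both quiescent media. In EGF/FGF the 4 libraries of Hes1 (chr16:30064384-30067796, plus strand) lay between 49.1 and 49.7 CPM. In BMP Hes1 was at 22.9 and 25.7 CPM in ANS4 and at 11.7 and 15.7 CPM in BL6, and in BMP/FGF at 18.9 and 20.1 CPM in ANS4 and at 21 and 21.6 CPM in BL6. Hes1 was 2.64-fold lower in BMP (log2 change -1.40 ± 0.15, FDR = 7.35e-08) and 2.42-fold lower in BMP/FGF (-1.27 ± 0.14, FDR = 2.53e-07). Over both lines the quiescent media did not differ in the test (0.13 ± 0.15, FDR = 0.529, 95% interval -0.19 to 0.45). That mean covered opposite values, since Hes1 changed by -0.32 ± 0.11 (SE, 2 libraries per medium) from BMP to BMP/FGF in ANS4 and by 0.64 ± 0.12 in BL6.

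Hes5, the Hes gene most closely tied to Notch in neural stem cells and 1 of the members with 2 RBPJ matches in the promoter window, was lowest in BMP. In EGF/FGF Hes5 (chr4:154960923-154962371, plus strand) was at 9.21 and 12.7 CPM in ANS4 and at 7.55 and 7.49 CPM in BL6. In BMP it was at 5.41 and 5.37 CPM in ANS4 and at 2.54 and 2.71 CPM in BL6, and in BMP/FGF at 6.2 and 7.22 CPM in ANS4 and at 6.71 and 7.09 CPM in BL6. The 3 ranges did not overlap. Counts behind these values ran from 49 to 246 per library. Hes5 was 2.34-fold lower in BMP than in EGF/FGF (log2 change -1.22 ± 0.17, FDR = 4.05e-06) and 1.75-fold higher in BMP/FGF than in BMP (0.81 ± 0.18, FDR = 0.0017). In ANS4 alone the latter change was 0.32 and not called (FDR = 0.188). Against EGF/FGF, Hes5 in BMP/FGF was lower by a log2 change of -0.42 ± 0.16 (FDR = 0.0272), a call that was lost without ANS4 EGF/FGF replicate 2 (FDR = 0.118) or without either ANS4 BMP/FGF replicate (FDR = 0.123 and 0.0879).

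Hey1, a Hey repressor and by reads the most abundant of the targets, dipped in BMP and stood in BMP/FGF where it stood in EGF/FGF. Hey1 (chr3:8663359-8667256, minus strand) was at 138 and 149 CPM in ANS4 and at 135 and 123 CPM in BL6 in EGF/FGF, and at 135 and 141 CPM in ANS4 and 129 and 135 CPM in BL6 in BMP/FGF. In BMP it was at 117 and 119 CPM in ANS4 and at 83.3 and 80.4 CPM in BL6, below every library of the other media. The log2 change was -0.46 ± 0.08 (FDR = 4.17e-05) in BMP against EGF/FGF and 0.45 ± 0.08 (FDR = 0.00026) in BMP/FGF against BMP. Between BMP/FGF and EGF/FGF it was -0.01 ± 0.08 (FDR = 0.891, 95% interval -0.18 to 0.16).

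Hey2, which like Hes5 had 2 RBPJ matches in the promoter window, was the least abundant member and the only one of the 4 targets that rose in BMP/FGF against EGF/FGF. Hey2 (chr10:30832359-30842801, minus strand) was at 0.518 and 0.517 CPM in ANS4 and at 0.364 and 0.413 CPM in BL6 in EGF/FGF, which is 7 to 10 counts per library. In BMP it was at 0.828 and 0.72 CPM in ANS4 and at 0.726 and 0.521 CPM in BL6 (10 to 15 counts), and in BMP/FGF at 1.83 and 1.29 CPM in ANS4 and at 1.4 and 1.01 CPM in BL6 (18 to 34 counts). Every BMP/FGF library lay above all others. Its log2 change was 1.60 ± 0.26 (FDR = 1.88e-05) in BMP/FGF against EGF/FGF and 0.98 ± 0.24 (FDR = 0.00343) against BMP, and 0.62 ± 0.29 in BMP against EGF/FGF, which was not called (FDR = 0.0579). In BL6 alone the change from BMP to BMP/FGF was 0.94 and not called (FDR = 0.0721). These counts are small, and Hey2 passed the filter on low counts through the media in which it was higher.

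Per kilobase of the median coding transcript, the order of the members in EGF/FGF began with Notch1 (78.8 ± 1.67 CPM per kb, SD, n = 4), Hey1 (56.3 ± 4.43), Hes1 (33.6 ± 0.202) and Dll1 (25.6 ± 3.47), and none of these ranges overlapped. Notch3 (19.5 ± 1.16), Notch2 (13.9 ± 0.809), Jag1 (8.7 ± 0.703), Hes5 (7.26 ± 1.92), Dll3 (5.09 ± 1.07) and Hey2 (0.178 ± 0.0301) followed, with Jag1 and Hes5, and Hes5 and Dll3, overlapping in range. In BMP Hes1 stood seventh of the 10, at 12.9 ± 4.4 CPM per kb, and overlapped Notch3 (13.8 ± 4.46) and Dll3. In BMP/FGF Hey1 (55.6 ± 1.97) stood above Notch1 (43.8 ± 2.74), and the range of Notch2 (12.9 to 18.1 CPM per kb) overlapped those of Notch3, Hes1 and Dll3. With the longest coding transcript Hey1 stood first and Notch1 second in all 3 media. Notch2 then stood above Notch3 in EGF/FGF (13.9 against 10.6 CPM per kb), and Hes1 above Notch3 in BMP (12.9 against 7.49). In BMP/FGF Notch3 was then at 8.63 ± 0.423, below Notch2, Hes1 and Dll3. The order of the members therefore depends on the transcript length used.

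The lines were next compared for how each responded, by testing the change in BL6 minus the change in ANS4. In BMP against EGF/FGF 5 of 10 members differed between lines, where 9.02% of all genes did. Notch3 (difference -0.71 ± 0.11, FDR = 0.000542), Hes1 (-0.84 ± 0.15, FDR = 0.00237) and Hey1 (-0.37 ± 0.10, FDR = 0.0211) fell further in BL6. Dll3 (0.85 ± 0.16, FDR = 0.00296) and Dll1 (0.43 ± 0.11, FDR = 0.0246) rose further in BL6. For Dll3 the log2 change was 1.28 ± 0.11 in ANS4 and 2.13 ± 0.11 in BL6, and for Hes1 it was -1.02 ± 0.10 and -1.85 ± 0.11. The count was 3 with the 8 libraries compared alone (615 of 13110 genes) or without BL6 EGF/FGF replicate 1 (656 of 13415). Dll1 lost its call without ANS4 EGF/FGF replicate 2, ANS4 BMP replicate 1 or either BL6 EGF/FGF replicate (FDR 0.0714 to 0.146), and Hey1 lost it without ANS4 EGF/FGF replicate 1, ANS4 BMP replicate 2 or BL6 EGF/FGF replicate 1 (FDR 0.059 to 0.1).

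For BMP/FGF against EGF/FGF 1 member differed between lines, where 4.98% of all genes did. This was Notch2 (0.31 ± 0.08, FDR = 0.0357), which was higher in BL6, and its call was lost when any 1 of the 8 libraries of these media was left out (FDR 0.0819 to 0.176). Hes5 had the largest difference of this comparison, 0.58 ± 0.22, and was not called (FDR = 0.139). Between the quiescent media 7 of 10 members differed between lines, where 13.5% of all genes did. The shares of all genes moved when 1 library was left out, from 4.56% to 18.2% in BMP against EGF/FGF, from 1.37% to 10.2% in BMP/FGF against EGF/FGF and from 6.68% to 21.1% between the quiescent media, the highest share in each without BL6 BMP replicate 1.

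Adding FGF2 to BMP4 raised Hes5 by 1.39 ± 0.19 on the log2 scale in BL6. In ANS4 its change was 0.32 ± 0.17 and was not called in this fit (FDR = 0.165), and the lines differed by 1.08 ± 0.26 (FDR = 0.01). Hes1 (0.96 ± 0.16, FDR = 0.00103), Notch3 (0.79 ± 0.11, FDR = 0.000229) and Hey1 (0.46 ± 0.10, FDR = 0.00394) also differed in the direction of a higher value in BL6. Notch2 fell in both lines, by a log2 change of -0.91 ± 0.06 in ANS4 and -0.42 ± 0.06 in BL6 (difference 0.49 ± 0.08, FDR = 0.000809). The ligands differed the other way, with Dll3 at -0.02 ± 0.10 in ANS4 and -0.60 ± 0.10 in BL6 (difference -0.58 ± 0.14, FDR = 0.0127) and Dll1 at 0.17 ± 0.08 and -0.26 ± 0.08 (difference -0.43 ± 0.11, FDR = 0.0169). Notch1, Jag1 and Hey2 were not called, with 95% intervals of the difference from -0.06 to 0.34, from -0.32 to 0.29 and from -1.17 to 1.03. Without ANS4 BMP replicate 1 the calls of both Dll1 (FDR = 0.0822) and Dll3 (FDR = 0.0573) were lost. Dll1 also lost its call without ANS4 BMP/FGF replicate 1 or 2 or BL6 BMP/FGF replicate 1 (FDR 0.0526 to 0.0929), and Dll3 without ANS4 BMP/FGF replicate 2 or either BL6 BMP/FGF replicate (FDR 0.0525 to 0.0592).

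**Figure D4:**
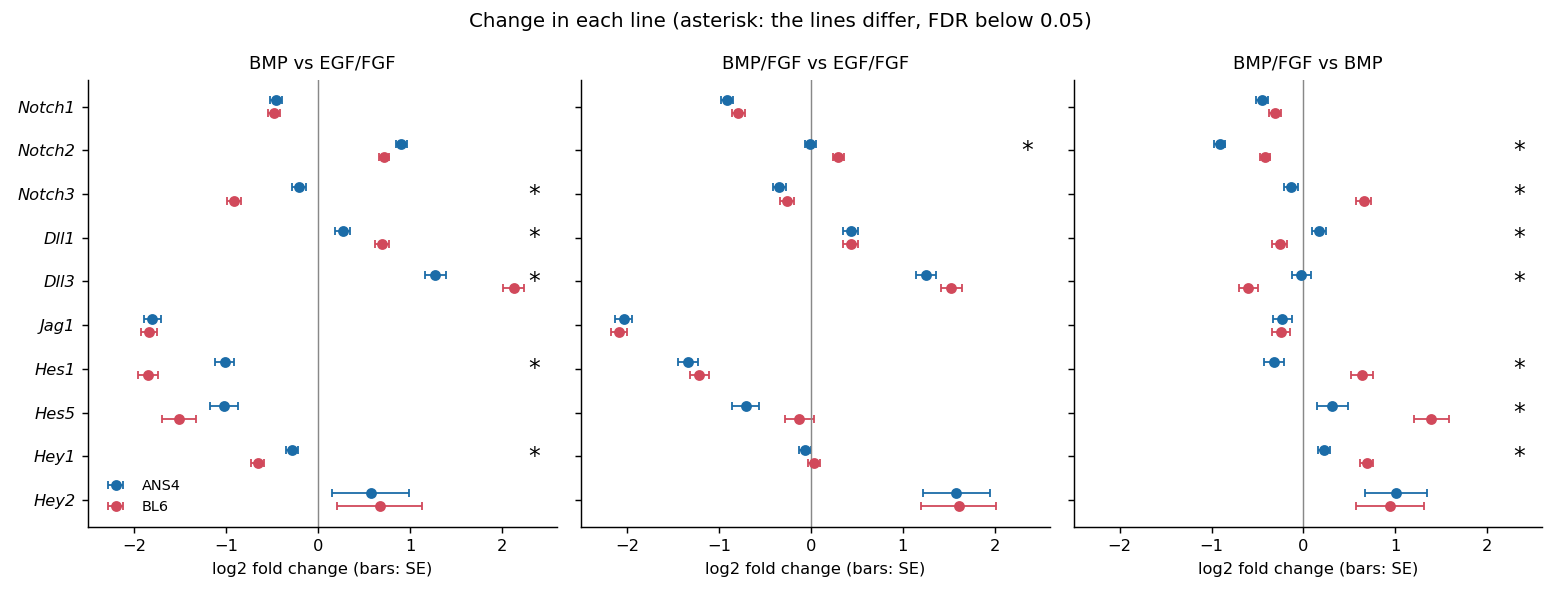
Log2 fold change of each member in ANS4 (blue) and BL6 (red) for the 3 comparisons, with SE bars, and an asterisk where the change differs between lines at an FDR below 0.05. Asterisks stand at 5 members in BMP against EGF/FGF, at 1 in BMP/FGF against EGF/FGF and at 7 in BMP/FGF against BMP, where the red points of Hes1, Hes5, Hey1 and Notch3 lie to the right of the blue ones.

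Markers of neuroblasts and young neurons moved with these differences. The summed level of the 6 listed genes, all in the table, was 569 to 601 CPM in EGF/FGF, 1302 to 1373 CPM in the ANS4 and 1897 to 1996 CPM in the BL6 libraries in BMP, and 934 to 1014 CPM in BMP/FGF. Most of the sum in EGF/FGF was Map2, with a mean of 555 CPM, while Tubb3 averaged 11.8 CPM and Dlx2 14.8 CPM. In BMP Map2 averaged 865 CPM in ANS4 and 1053 CPM in BL6. Dcx, which encodes a microtubule protein of migrating neuroblasts, averaged 1.29 CPM in EGF/FGF, 172 CPM in ANS4 and 388 CPM in BL6 in BMP, and 49.9 CPM in BMP/FGF. The neuronal markers Rbfox3 and Stmn2 stayed at or under 4 and 12 counts in every library. The BL6 BMP libraries therefore held the highest neuroblast marker levels and the lowest Hes1, Hes5, Hey1 and Notch3 levels and the highest Dll3 levels, and the part of the markers in these levels was not tested. Other marker lists also parted by line in BMP. The summed oligodendrocyte lineage markers (6 of 6 measured) reached 594 to 633 CPM in ANS4 and 799 to 906 CPM in BL6 in BMP, where EGF/FGF libraries held 956 to 1067 CPM and BMP/FGF libraries 680 to 745 CPM. Astrocyte and quiescent stem cell markers (6 of 6), among them Gfap and Aqp4, summed to 6967 to 6988 CPM in ANS4 and 5735 to 5825 CPM in BL6 in BMP, beside 1578 to 2024 CPM in EGF/FGF and 8555 to 8779 CPM in BMP/FGF. Ependymal markers (4 of 5) were higher in both quiescent media, with 193 to 235 CPM in BMP and 197 to 211 CPM in BMP/FGF, than in EGF/FGF with 62.9 to 78 CPM. The part of these markers in the members' levels was not tested either.

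The rest of the pathway was described from a list of 67 other genes, of which 65 were in the table and 61 were tested. In BMP against EGF/FGF 29 were higher, 18 lower and 14 not called (median log2 change 0.11, all genes 0.02), beside 40.8% higher and 38.8% lower among all genes. With BMP/FGF the counts against EGF/FGF were 23 upward and 22 downward, beside 40.9% and 38% of all genes (median -0.00, all genes 0.02). From BMP to BMP/FGF, 7 went up and 26 down, beside 20.1% and 21.3% of all genes (median -0.18, all genes -0.00). These shares of all genes are also the background for the counts of each group that follows, which hold 3 to 18 tested genes.

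Of the other receptors and ligands, 5 of 6 were tested, and 2 were higher and 1 lower in BMP. Dll4, a Delta-type ligand best known from blood vessels, was higher in BMP (1.65 ± 0.16, FDR = 2.59e-08) and in BMP/FGF (1.46 ± 0.16, FDR = 1.79e-07), at 1.19 to 1.55 CPM in EGF/FGF and 3.87 to 4.64 CPM in BMP. The non-canonical ligand genes Dlk1 and Dlk2 had few counts. Dlk1 had 13 to 29 counts per library in EGF/FGF, where BMP libraries had 9 to 14 and BMP/FGF libraries 7 to 8, and it passed the filter on low counts through the media in which it was higher. Dlk2 had 2 to 3 counts per library in EGF/FGF, where BMP libraries had 11 to 22 and BMP/FGF libraries 4 to 7, and it passed the filter through BMP.

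Receptor cleavage needs an ADAM protease and then gamma-secretase. Of the 9 genes of this group 5 were higher and 2 lower in BMP. The gamma-secretase genes Psen2 (2.08 ± 0.11, FDR = 5.75e-12) and Aph1b (1.10 ± 0.07, FDR = 1.93e-10) rose most, and Psen2 ranged over 3.88 to 5.37 CPM in EGF/FGF, over 17.5 to 20.4 CPM in BMP and over 15.7 to 18.8 CPM in BMP/FGF. Among the 6 genes that attach sugars to the receptor, 2 were higher and 2 lower in BMP. Lfng, a Fringe enzyme that favours Delta over Jagged ligands and is itself a Notch target in some tissues, fell by a log2 change of -1.32 ± 0.08 in BMP (FDR = 2.23e-11) and was higher in BMP/FGF than in BMP (0.49 ± 0.08, FDR = 6.22e-05).

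Of 12 genes of ligand and receptor endocytosis 6 were higher and 2 lower in BMP, and 7 were lower and 1 higher in BMP/FGF against BMP. The 2 that fell in BMP were the Neuralized-type ubiquitin ligases, which act on ligands. Neurl1b changed by -2.64 ± 0.11 in BMP (FDR = 2.18e-13) and -3.29 ± 0.12 in BMP/FGF (FDR = 3.02e-14), and Neurl1a by -1.47 ± 0.19 (FDR = 9.84e-07) and -2.24 ± 0.20 (FDR = 1.33e-08). Dtx1, a Deltex gene, rose by 2.09 ± 0.08 in BMP (FDR = 5.67e-14) and by 1.61 ± 0.08 in BMP/FGF (FDR = 1.93e-12). Numbl, a relative of the Notch antagonist Numb (1.27 ± 0.11, FDR = 6.15e-09), and Dtx3 (1.03 ± 0.08, FDR = 1.23e-09) were also higher in BMP.

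In the nucleus, Rbpj itself changed little, by 0.25 ± 0.06 in BMP (FDR = 0.00121) and -0.17 ± 0.06 in BMP/FGF (FDR = 0.0158) against EGF/FGF. Of the 18 genes of the nuclear complex 9 were higher and 7 lower in BMP, and 10 were lower and 1 higher in BMP/FGF against BMP. The corepressor gene Tle2, of the Groucho family that Hes and Hey proteins recruit, fell by a log2 change of -2.37 ± 0.16 in BMP (FDR = 2.6e-10) and -2.22 ± 0.16 in BMP/FGF (FDR = 6.17e-10). The acetyltransferase genes Kat2a (-1.12 ± 0.08, FDR = 2.05e-10) and Kat2b (1.08 ± 0.06, FDR = 3.68e-11) moved in opposite directions in BMP/FGF.

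Among the 4 other target genes, 3 were tested and 2 called. Nrarp, a feedback inhibitor of Notch, fell in BMP (-1.42 ± 0.11, FDR = 8.81e-10) and was higher in BMP/FGF than in BMP (0.88 ± 0.11, FDR = 6.36e-06). Fabp7, a fatty acid binding protein of radial glia, fell by -2.39 ± 0.14 in BMP (FDR = 3.55e-11) and rose by 1.58 ± 0.14 from BMP to BMP/FGF (FDR = 1.3e-07). Nrarp and Fabp7 thus ran in the same order as Hes5, highest in EGF/FGF, lowest in BMP and between them in BMP/FGF. Hes7, the remaining tested gene of this group, did not, with a mean of 0.337 CPM in EGF/FGF and 0.505 CPM in BMP, and it was not called. Heyl was not tested, with 3 to 7 counts in EGF/FGF and 0 to 1 in each quiescent library.

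The proneural genes, which Hes proteins repress, were partly at low counts, and 4 of the 6 in the table were tested. Insm1, a zinc finger gene of neurogenic progenitors, rose by 1.70 ± 0.08 in BMP (FDR = 2.05e-12) and was lower in BMP/FGF than in BMP (-1.16 ± 0.08, FDR = 8.63e-09). Neurod1 had 2 to 4 counts per library in BMP/FGF, beside 5 to 19 in EGF/FGF and 0 to 17 in BMP libraries, and passed the filter through the latter media. The Id genes are direct targets of BMP signalling, and their proteins can bind Hes1. Of the 4, Id1, Id2 and Id4 were higher and Id3 lower in both quiescent media, Id4 by 3.73 ± 0.13 in BMP (FDR = 2.6e-14) and 3.21 ± 0.13 in BMP/FGF (FDR = 2.36e-13), Id2 by 2.08 ± 0.08 in BMP (FDR = 9.31e-14) and Id1 by 1.29 ± 0.10 in BMP (FDR = 1.15e-09).

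**Figure D5:**
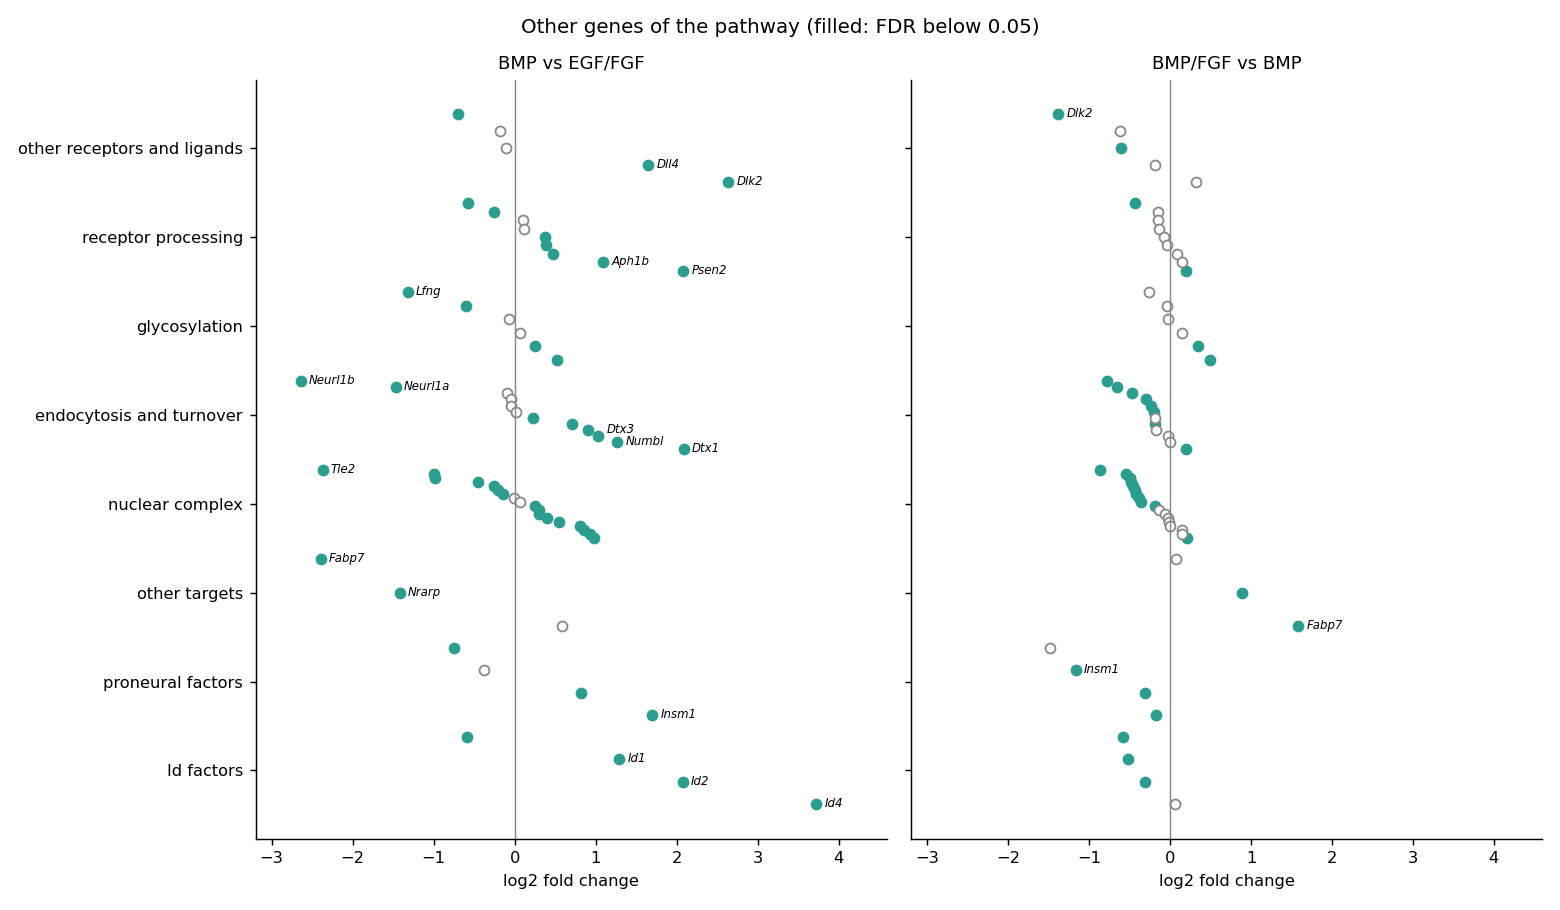
Log2 fold change of the 61 tested other pathway genes by role, in BMP against EGF/FGF (left) and BMP/FGF against BMP (right), filled where the FDR is below 0.05 and named where the change is also at least 1. Names stand on both sides of 0 on the left, and on the right Fabp7 is the only named gene above 0.

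The genes whose profile was most like that of each target were looked up among about 10840 tested genes whose mean was 5 CPM or more, as a description over 12 libraries that share media and lines. For Hes5 they were Eef1akmt1, Tmem14c and Tmx2 (Pearson r = 0.980, 0.977 and 0.970 on log2 CPM), and for Hey1 they included Sra1 and Tmem14c (r = 0.970 and 0.964). For Hes1 they were Ogdh, Hs3st3b1 and Slc1a5 (r = 0.989, 0.986 and 0.981), and for Hey2 Samd9l, Lrrc27 and Ddrgk1 (r = 0.966, 0.964 and 0.962). Tmem14c was shared by Hes5 and Hey1, with 31.1 to 40.4 CPM in EGF/FGF, a lower range of 18.9 to 28.5 CPM in BMP, and 30.9 to 34.9 CPM in BMP/FGF.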

How the data were processed

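RNA-seq libraries from 12 cultures were analysed. Per the labels and the study's methods, the authors used Trim Galore 0.5.0 for trimming and kallisto 0.44.0 (mm10) for quantification, summed transcripts to genes and deposited estimated counts, which were already whole numbers. A strand setting is not given in the sources used here, and Notch1, Notch3, Dll1 and Hes5 each overlap an annotated gene on the opposite strand and Notch2 one on its own strand, so reads from those cannot be told apart. A deposited table of transformed values was not used.

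Estimated counts were filtered with filterByExpr by medium, scaled by TMM and tested with edgeR 4.0.16 (R 4.3.3; glmQLFit and glmQLFTest, two-sided) with terms for medium and line. Line differences were contrasts of the 6 line and medium groups. Adjusted p-values are Benjamini-Hochberg values over all 13312 tested genes. SEs were derived from the F statistic. DESeq2 1.42.0 was an alternative. The test of BMP against EGF/FGF (edgeR and DESeq2) and its line difference (edgeR) were tried on simulated counts, and the other steps were not. Total counts limit precision as the counts given beside low genes show. The p-values measure the spread between these cultures. In the fit of medium and line, that spread also takes in differences between the 2 lines in their response.

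The members, lists and tests were chosen with earlier results of these data known. Text names the 10 members, listed pathway genes with an FDR below 0.05 and a log2 change of at least 1 in any comparison, and the 3 most similar genes per target (a prior count of 2 on log2 CPM); Rbpj, Heyl and single markers were chosen after their values were seen. Some results that this rule would name are not reported here.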

Additional observations from a re-analysis of the deposited data

Results flagged for a closer look

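Of 30 differences between lines tested, the 13 that were called are given here together, as the log2 change in BL6 minus that in ANS4. In BMP against EGF/FGF they were Dll1 0.43, Dll3 0.85, Hes1 -0.84, Hey1 -0.37 and Notch3 -0.71. In BMP/FGF against EGF/FGF the only one was Notch2, at 0.31. In BMP/FGF against BMP they were Dll1 -0.43, Dll3 -0.58, Hes1 0.96, Hes5 1.08, Hey1 0.46, Notch2 0.49 and Notch3 0.79. The BL6 BMP libraries enter both comparisons with differences at several members, so their values are not independent of each other. No library stood far from the other 3 of its medium at any member (Dixon's test on 30 groups of 4 libraries), where chance alone flags about 1 in 20 groups if all 4 are alike. Each group held 2 libraries of each line, so where the lines differed the test was unlikely to flag any library. It therefore does not show that replicates lay close, and the BL6 BMP replicates differed most (chi-square per degree of freedom 12.3).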

How the results depend on the processing

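In BMP against EGF/FGF the count of called members was 9 under every alternative run. In BMP/FGF against EGF/FGF it was 8, and 6 to 9 under the alternatives, and in BMP/FGF against BMP it was 7, and 5 to 8. Under the filtered alternatives, all genes called in BMP against EGF/FGF ran from 10096 of 13441 to 10614 of 13425. They ran from 9990 of 13441 to 10798 of 13073 in BMP/FGF against EGF/FGF, and from 4604 of 13434 to 5557 of 13312 between the quiescent media. Without the filter they were 11153, 10946 and 5319 of 17365. Scaling by DESeq2 size factors and the DESeq2 Wald test changed no call of a member. The count of line differences was 5 in BMP against EGF/FGF, 3 with only the 8 libraries compared (615 of 13110 genes) and 3 to 5 with 1 library left out. In BMP/FGF against EGF/FGF it was 1, but 0 by library size only (653 of 13312 genes) and 0 to 1 with 1 library left out. The share of all genes with a line difference, the background of these counts, moved by over 1.5 times without any 1 of the EGF/FGF libraries, ANS4 BMP replicate 1 or BL6 BMP replicate 1 in BMP against EGF/FGF (4.56% to 18.2%), without any 1 of the EGF/FGF, BMP/FGF or BL6 BMP libraries in BMP/FGF against EGF/FGF (1.37% to 10.2%), and without any 1 of the BMP/FGF libraries, ANS4 BMP replicate 2 or BL6 BMP replicate 1 in BMP/FGF against BMP (6.68% to 21.1%).

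Same-numbered replicates are not said to share a culture or day, and their deviations did not run together (r from -0.0711 to 0.0529 over genes), so the numbers were not taken to pair the libraries. With a replicate block the called members numbered 9, 8 and 6 in the 3 comparisons, the lost one being Dll3 between the quiescent media (FDR = 0.0656). Of all 13312 genes 10399, 10325 and 5025 were called. The line differences numbered 5, 0 and 7 among the members, and 1020, 538 and 1638 among all genes.

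Changes that turned direction had not been called over both lines. In ANS4 alone these were Notch2 (-0.0067) in BMP/FGF against EGF/FGF, and Notch3 (-0.13), Dll1 (0.17) and Hes1 (-0.32, FDR = 0.0129) in BMP/FGF against BMP, and in BL6 alone Hey1 (0.018) in BMP/FGF against EGF/FGF. With 1 library left out Hey1 ran from -0.073 to 0.027 in BMP/FGF against EGF/FGF, and in BMP/FGF against BMP Dll1 ran from -0.13 to 0.0021 and Hes1 from -0.049 (without BL6 BMP replicate 1) to 0.28. Among the line differences, library size only turned Notch1 (0.017) in BMP against EGF/FGF, and Dll1 (-0.039) and Hey2 (-0.014) in BMP/FGF against EGF/FGF, where Dll1 was also -0.0019 with the replicate block and -0.0061 with only the 8 libraries compared. Leaving out 1 library gave -0.10 to 0.064 for Notch1, -0.10 to 0.021 for Jag1 and -0.16 to 0.31 for Hey2 in BMP against EGF/FGF. The same gave -0.12 to 0.12 for Dll1, -0.13 to 0.026 for Jag1 and -0.23 to 0.30 for Hey2 in BMP/FGF against EGF/FGF, and -0.083 to 0.076 for Jag1 and -0.31 to 0.22 for Hey2 in BMP/FGF against BMP. The cause of these changes was not tested. With 2 replicates per line and medium, and 7 to 34 counts, the interval of Hey2 is wide and says little on whether the lines differ. Jag1 lost its call between the quiescent media in each line alone (FDR = 0.0988 and 0.105).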
